A study of Mus musculus with 16 samples.

Results

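Heat-shock chaperones bind unfolded stretches of other proteins and help them fold, refold or reach degradation. The HSP70 proteins do this in cycles of ATP hydrolysis that J-domain proteins (the DNAJ family) start and nucleotide exchange factors end, and HSP90 takes over part of the clients for their last folding steps. In neurons this machinery is known for handling tau, the microtubule-binding protein that aggregates in Alzheimer's disease and related disorders, and heat shock factor 1 is known to switch on its inducible members when proteins misfold.

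The 10 genes described here were chosen by symbol among 32285 genes of the count tables: the inducible HSP70 genes Hspa1a and Hspa1b, the constitutive Hspa8, the endoplasmic reticulum HSP70 Hspa5, the HSP90 genes Hsp90aa1 and Hsp90ab1, the HSP110 gene Hsph1, and the J-domain genes Dnaja1, Dnaja2 and Dnajb1. Each symbol stood for 1 gene. Their levels per class, group and library were in view when they were selected, and the difference of Dnaja2 between libraries was part of that choice. It is therefore given as a description with no test, as are differences between cell classes.

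Nuclear RNA was sequenced from the hippocampus of 16 female mice aged 9 months, with 4 libraries in each of 4 groups. They carry Ch25h (labelled Ch25h+/+) or are labelled as lacking it (Ch25h-/-), and each genotype comes with tau (Tau+) and without (Tau-). Ch25h encodes cholesterol 25-hydroxylase, and the title of the study places it between innate immune signalling and tau pathology. The strain, the tau line and the promoter driving tau are not given in the sources used here, and all groups share sex, age and tissue. The labels do not state that replicates were prepared apart, so p-values measure the spread between these samples. Replicate numbers follow the order of deposition and pair no samples.

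The libraries held 51270831 to 84870650 unique molecular identifiers (UMIs, counted RNA molecules), and 7601 to 10567 nuclei per library were kept (136828 in all), with medians of 3643 to 6253 UMIs and 1912 to 2782 genes. Classes are clusters named from marker genes, so each name means cells like that type. Mog was at a median of 1203 CPM (the usual depth-scaled count, here over all UMIs of a class in a library) in oligodendrocytes and at most 5.07 CPM in 6 other classes, Csf1r at 1115 CPM in microglia against at most 2.55, and Neurod6 at 121 CPM in CA pyramidal neurons against at most 11.4. Prox1 separated less, with 265 CPM in dentate granule neurons and 214 CPM in oligodendrocytes. Ch25h did not check the labels: libraries held 8 to 36 Ch25h UMIs over all nuclei where labelled Ch25h+/+ and 10 to 30 where labelled Ch25h-/-, and which part of the gene was deleted is not given in the sources used here. In microglia Tau+ libraries held 0 to 20 Ch25h UMIs (32 in all) where labelled Ch25h+/+ and 1 to 4 (7 in all) where labelled Ch25h-/-. Microglia of Tau- libraries held 0. Directions below that involve Ch25h rest on the labels. Between any pair of libraries 8 to 36 nuclei shared a barcode, at most 0.449% of the smaller library.

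The regulatory sequences of these genes differ. RefSeq promoters (GRCm38.p6) were matched for 7 of the 10 genes, and the 250 bases before the start are shown for 4 of them, because they hold, or lack, the elements for which chaperone genes are known. Capitals mark the 2-unit heat shock element (GAANNTTC or TTCNNGAA, each its own reverse complement), the short form of the site of heat shock factors, and the ER stress response element (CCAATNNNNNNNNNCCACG, either strand), the site through which unfolded proteins in the endoplasmic reticulum act. The sequences read 5′ to 3′ along the gene.
Hsph1 (chr5:149636337-149636586, minus strand): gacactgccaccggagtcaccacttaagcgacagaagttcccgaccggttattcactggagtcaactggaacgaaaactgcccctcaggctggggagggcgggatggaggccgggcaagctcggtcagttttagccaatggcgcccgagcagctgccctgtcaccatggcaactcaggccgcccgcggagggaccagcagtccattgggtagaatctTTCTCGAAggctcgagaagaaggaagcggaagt
Hspa1a (chr17:34972157-34972406, minus strand): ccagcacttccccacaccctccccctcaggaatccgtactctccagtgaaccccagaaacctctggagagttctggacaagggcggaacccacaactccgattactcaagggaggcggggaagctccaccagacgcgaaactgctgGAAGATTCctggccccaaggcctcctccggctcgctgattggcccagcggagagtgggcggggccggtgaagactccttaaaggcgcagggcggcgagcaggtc
Hspa5 (chr2:34771840-34772089, plus strand): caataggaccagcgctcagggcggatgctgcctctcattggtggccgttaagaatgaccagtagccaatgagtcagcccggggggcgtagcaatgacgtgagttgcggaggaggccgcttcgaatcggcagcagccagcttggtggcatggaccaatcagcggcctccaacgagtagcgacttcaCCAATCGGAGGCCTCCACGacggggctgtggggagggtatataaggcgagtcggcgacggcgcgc
Dnaja2 (chr8:85555362-85555611, minus strand): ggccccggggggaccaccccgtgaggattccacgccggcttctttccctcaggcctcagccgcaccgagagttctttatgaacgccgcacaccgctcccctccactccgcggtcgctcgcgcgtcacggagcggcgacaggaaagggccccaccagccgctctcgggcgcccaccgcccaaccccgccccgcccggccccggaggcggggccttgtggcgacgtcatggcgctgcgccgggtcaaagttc
The 2-unit element stood once in Hsph1, Hspa1a, Hspa1b and Dnaja1, and 12.8% of 32851 RefSeq promoters of that length held it. Where RefSeq lists several starts the one nearest the GENCODE start was read, and the other 2 windows of Dnaja1 did not hold the element. The Dnaja1 start that was read lay 318 bases from the GENCODE start. The 3-unit form (GAANNTTCNNGAA or TTCNNGAANNTTC, which contains the shorter one) stood in none of the 7 and in 0.466% of all promoters. Only exact letters within the 250 bases were searched, so sites with changed letters or farther away were not counted. The ER stress response element stood once in Hspa5 and in 0.113% of all promoters. Neither element's letters were found in this window of Dnaja2 or Dnajb1.

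Dnaja2, a J-domain partner of HSP70 in the cytosol, is a gene of 9 exons on chromosome 8 (8:85537633-85555344, minus strand, GRCm38) that no other annotated gene overlaps. Its level fell into separate ranges by library within every group. In CA pyramidal neurons replicates 1 and 2 read 159.9 and 158 CPM in Ch25h+/+ Tau+, 181 and 159 CPM in Ch25h+/+ Tau-, 164 and 164 CPM in the libraries labelled Ch25h-/- Tau+, and 147 and 164 CPM in those labelled Ch25h-/- Tau-. Replicates 3 and 4 read 33.8 and 34.7 CPM, 32.3 and 36.9 CPM, 30.4 and 28.5 CPM, and 37.0 and 32.5 CPM in the same order of groups. The 8 libraries of replicates 1 and 2 were thus all above the 8 of replicates 3 and 4, whatever the genotype, and the ratio of their mean levels was 4.87. These values rest on 370 to 2439 Dnaja2 UMIs per library.

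**Figure D1:**
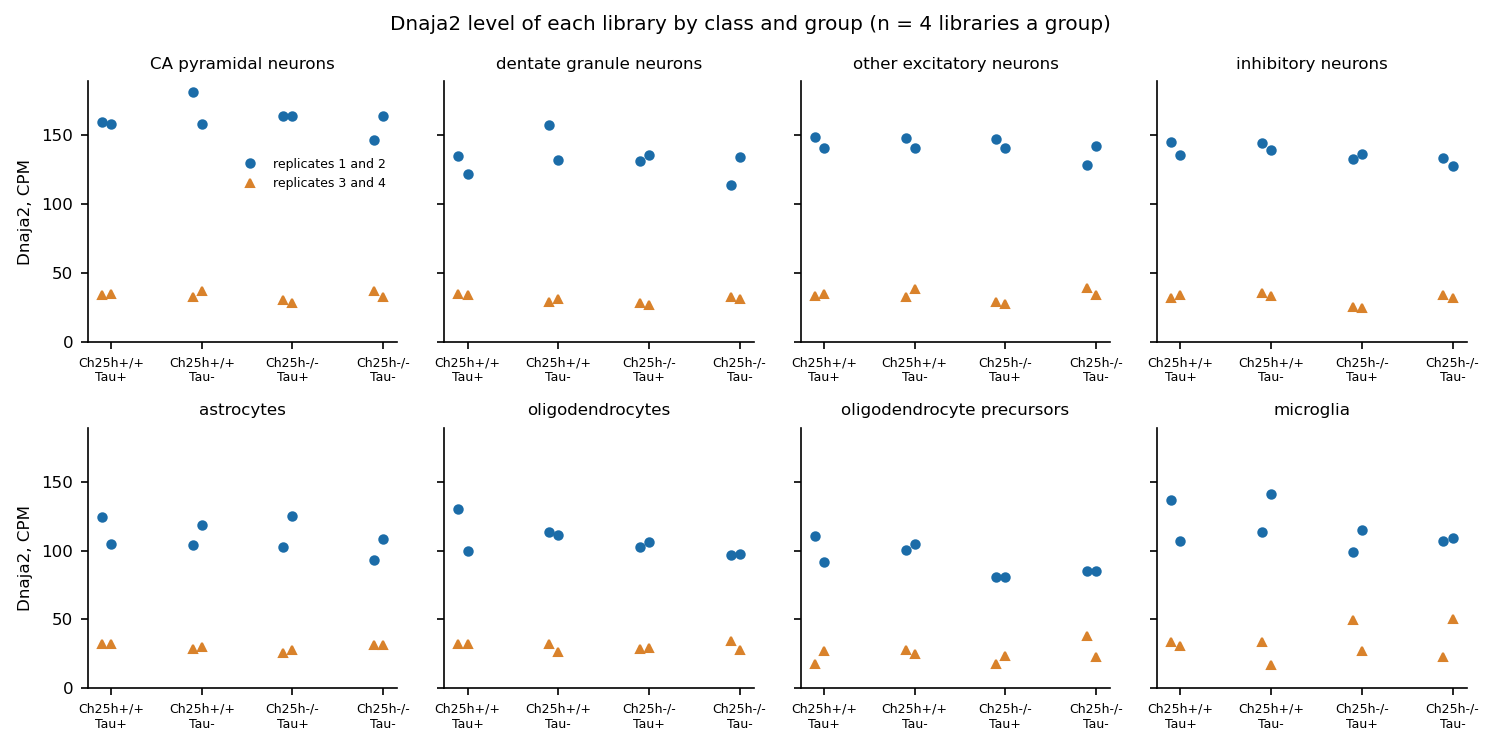
Dnaja2 level (y axis, CPM from 0) of each library in 8 cell classes, by the 4 labelled groups (x axis, n = 4 libraries a group). Circles are replicates 1 and 2 and triangles replicates 3 and 4; circles lie above triangles in every panel, for example from 147 to 181 CPM against 28.5 to 37.0 CPM in CA pyramidal neurons.

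The same libraries were high in every class described. Dentate granule neurons, the input neurons of the hippocampal circuit, had 114 to 157 CPM in replicates 1 and 2 and 26.5 to 34.9 CPM in replicates 3 and 4. Inhibitory neurons had 128 to 145 CPM against 24.9 to 35.4 CPM, and other excitatory neurons 128 to 149 CPM against 27.4 to 39.0 CPM. Glia showed the split as well. Oligodendrocytes, the myelin-forming cells, had 96.9 to 130.0 CPM against 26.1 to 34.3 CPM, and astrocytes 93.0 to 126 CPM against 25.6 to 32.3 CPM. Oligodendrocyte precursors had 80.9 to 110.3 CPM against 17.4 to 37.6 CPM, and microglia 98.8 to 141 CPM against 16.6 to 50.6 CPM, the latter from as few as 4 UMIs in a library. The ratio of the means was 4.30 in dentate granule neurons, 4.37 in inhibitory, 4.23 in other excitatory neurons, 3.68 in astrocytes, 3.53 in oligodendrocytes, 3.72 in precursors and 3.49 in microglia. In barcodes with fewer than 100 UMIs, which hold mostly free RNA, Dnaja2 was at 107 to 151 CPM against 45.4 to 73.5 CPM, a ratio of 2.19. That fixed cut took unlike parts of the background. Barcodes ranked far below the nuclei had a median of 89 to 136 UMIs in replicates 1 and 2 and 66 to 82 in replicates 3 and 4. The barcodes under the cut held 1745236 to 3693394 UMIs a library against 4004191 to 4839087.

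Of the other 9 chaperone genes, none had separate ranges in these replicates in any of the 6 classes tested. Hspa5 was lower in replicates 1 and 2 without overlap in other excitatory neurons (means 35.3 and 50.7 CPM), a class outside those 6. For the 7 of them at over 2 CPM, mean levels in replicates 1 and 2 were 0.539 to 1.03 times those in replicates 3 and 4 over 8 classes. Dnaja1, the close relative of Dnaja2, had ratios of 0.783 to 0.938. Among other genes averaging 10 UMIs or more in a library, 2.68% of 75907 gene-by-class values in the 6 classes were higher in replicates 1 and 2 with no overlap, and 0.739% were lower.

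**Figure D2:**
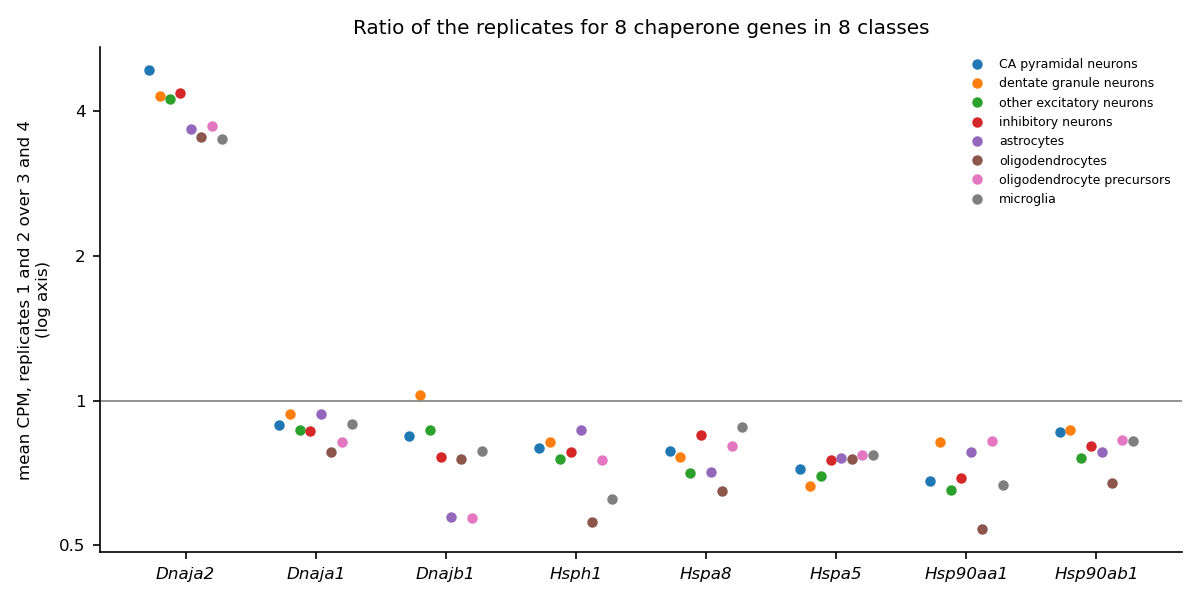
Mean CPM in replicates 1 and 2 divided by that in replicates 3 and 4 (y axis, log scale) for 8 chaperone genes (x axis), one point for each of 8 cell classes, from 8 and 8 libraries. Dnaja2 lies at 3.49 to 4.87 in all classes and the other genes at 0.539 to 1.03.

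Other genes differed in this way too. With the 10 chaperone genes left out, the first principal component of the libraries' deviations from their group means held 34.7% of the variance in CA pyramidal neurons, and put all 16 libraries on the side of their replicate pair. It did so for 16 of 16 libraries in 5 of the 6 classes and for 15 in microglia, with 23.3 to 34.7% of the variance. With 1 added to both mean CPM before the ratio, which lowers that of genes with few UMIs, 3 of 15938 other genes in CA pyramidal neurons had a larger log2 ratio than Dnaja2 (2.25). Without it Cebpb, C2cd4b and Gm26910 had larger ratios (15.4, 21.1 and 6.78), and genes beyond these were not counted. In all 491 were higher and 253 lower in replicates 1 and 2 with no overlap. Genes beside Dnaja2 on the chromosome differed little: the ratio was 1.14 for Gpt2, 1.10 for Neto2 and 1.01 for Itfg1, although 4921524J17Rik at 1.32 also had no overlap. The labels give no batch, preparation or sequencing date. Barcodes ranked far below the nuclei by UMIs, which hold free RNA, had a median of 89 to 136 UMIs in replicates 1 and 2 and 66 to 82 in replicates 3 and 4, so this background moved with the split. Its part in the level of Dnaja2 was not tested.

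The 5 genes whose library pattern in CA pyramidal neurons was most like that of Dnaja2, by the root mean square difference of centred log2(CPM + 1) over 16 libraries, were Cebpb, Gm26910, C2cd4b, Ube2m and Pou3f1, at 0.21 to 0.27 against a median of 1.16 over the genes compared. Ube2m, which encodes an enzyme that conjugates NEDD8, read 18.0 to 25.5 CPM in replicates 1 and 2 and 4.25 to 6.34 CPM in replicates 3 and 4. Pou3f1, a transcription factor gene, read 16.4 to 21.7 CPM against 2.08 to 6.43 CPM. None of the 5 is a chaperone gene. Among the further chaperone genes of 8 lists (heat shock factors, other HSP70, J-domain, exchange factors, HSP90 partners, small heat shock proteins, chaperonins, ER chaperones), Dnajc21 alone was higher in replicates 1 and 2 with no overlap, in 5 of the 6 classes. St13 in dentate granule and CA pyramidal neurons, and Ahsa1 and Hspa2 in dentate granule neurons, were lower with no overlap. The higher gene was 1 of 89 to 95 list genes in those 5 classes, where 2.30 to 3.19% of all genes were higher. The lower ones were 3 of 92 list genes in dentate granule and 1 of 95 in CA pyramidal neurons. Of all genes 1.02% and 1.59% were lower in these 2 classes. The shares over all genes and 6 classes were the 2.68% higher and 0.739% lower given above. Dnajc21, a J-domain protein of ribosome biogenesis, averaged 76.4 ± 5.59 CPM in replicates 1 and 2 and 39.2 ± 2.92 CPM in replicates 3 and 4 of CA pyramidal neurons (SD, n = 8 each).

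Each group held 2 libraries of either kind, so the spread of Dnaja2 within a group was wide. In CA pyramidal neurons the means were 96.6 ± 72.1 CPM in Ch25h+/+ Tau+, 102 ± 78.7 CPM in Ch25h+/+ Tau-, 96.7 ± 77.7 CPM in Ch25h-/- Tau+ and 95.0 ± 69.9 CPM in Ch25h-/- Tau- (SD, n = 4 each). edgeR's quasi-likelihood test gave log2 fold changes of -0.17 to 0.14 in 24 tests (4 comparisons in 6 classes) with standard errors (SE) of 0.61 to 0.86, and none passed. With the replicate split as a term in the model the fold changes were -0.17 to 0.06 with SE of 0.07 to 0.24. That term is the difference for which Dnaja2 was chosen, so these values are a description with no test.

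The other genes are described by role. Hsp90aa1 and Hsp90ab1 encode the inducible and the constitutive cytosolic HSP90. Hsp90aa1 had a median of 128 CPM (94.6 to 355 CPM over 16 libraries) in oligodendrocytes, and medians of 33.6 to 55.4 CPM in 7 other classes. Oligodendrocytes were above inhibitory neurons, the next in order, in 16 of 16 libraries. Below them inhibitory neurons, other excitatory neurons and precursors had medians of 55.4, 49.0 and 46.1 CPM and differed by less than their spread over libraries. Hsp90ab1 followed the same first place, with a median of 214 CPM (161 to 431 CPM) in oligodendrocytes and 119 CPM (90.9 to 194 CPM) in microglia, the next class, which was lower in 16 of 16 libraries. Astrocytes had the lowest medians for both, at 33.6 and 76.0 CPM. They were below the next class, dentate granule neurons, in only 10 of 16 libraries for Hsp90aa1, and below other excitatory neurons in 13 of 16 for Hsp90ab1.

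Hspa8, the HSP70 of resting cells that also uncoats clathrin vesicles, was at a median of 79.3 CPM (53.1 to 210.1 CPM) in oligodendrocytes and 34.9 CPM (19.7 to 58.9 CPM) in CA pyramidal neurons, which had the lowest median but were below dentate granule neurons (35.9 CPM) in only 9 of 16 libraries. Inhibitory neurons (62.1 CPM) and microglia (58.9 CPM) could not be ordered, with either above the other in 8 of 16 libraries. Hspa5, which encodes BiP, the HSP70 of the endoplasmic reticulum lumen, had its highest level in microglia at a median of 127 CPM (81.7 to 222 CPM). Microglia were above oligodendrocytes (80.9 CPM) in 16 of 16 libraries, and CA pyramidal and other excitatory neurons were lowest at 43.5 and 42.1 CPM. In barcodes under 100 UMIs Hspa5 was at 129.8 to 569 CPM, Hsp90ab1 at 127 to 843 CPM, Hspa8 at 115 to 547 CPM and Hsp90aa1 at 72.6 to 401 CPM. Nuclei differed in depth, given as the median of UMIs over the library's median. It was 0.329 and 0.442 in oligodendrocyte clusters, 0.324 in microglia and 0.519 and 0.508 in astrocytes. CA pyramidal clusters were at 1.80 to 2.79. The part of free RNA in the class levels was not tested.

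Hsph1, which exchanges nucleotides on HSP70 and holds unfolded proteins, had another order. Its median was 45.2 CPM (25.3 to 85.4 CPM) in oligodendrocyte precursors, 33.5 CPM in CA pyramidal neurons, 29.6 CPM (17.7 to 105 CPM) in oligodendrocytes and 10.5 CPM (3.08 to 24.9 CPM) in microglia. Precursors were above CA pyramidal neurons in 14 of 16 libraries. Dnaja1, which delivers clients to HSP70, differed least between classes, with medians of 48.5 CPM in precursors to 62.0 CPM in dentate granule neurons, and neighbouring classes overlapped throughout. Dnajb1, the J-domain protein that heat shock induces, was at medians of 2.61 CPM in dentate granule neurons to 6.89 CPM in oligodendrocytes.

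**Figure D3:**
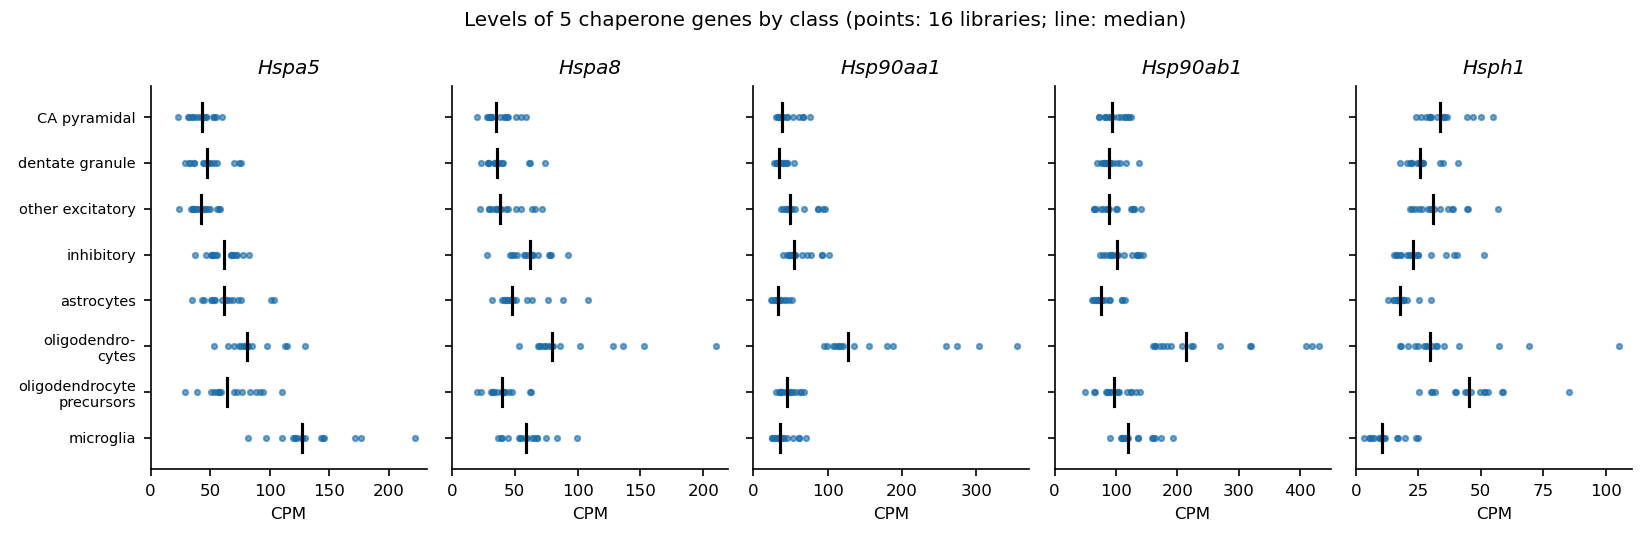
Levels (x axes, CPM from 0) of 5 chaperone genes in 8 cell classes (rows). Points are the 16 libraries and lines their medians; oligodendrocytes lead for Hsp90aa1, Hsp90ab1 and Hspa8, microglia for Hspa5 (median 127 CPM) and oligodendrocyte precursors for Hsph1 (median 45.2 CPM).

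Hspa1a and Hspa1b, the genes that heat shock induces most, were near the limit of detection. Over all nuclei they gave 495 and 188 UMIs in 16 libraries, at 0.307 to 1.32 CPM and 0.105 to 0.431 CPM. Both are genes of 1 exon on chromosome 17 (17:34969190-34972156 and 17:34956436-34959238, minus strand, GRCm38). Their transcripts were identical at 85.5% of aligned positions over the whole length and at 51.0% over the last 500 bases, the end that 3′ tags come from. Whether reads were shared between the 2 genes was not tested, so both levels are uncertain. Their promoter windows were identical at 247 of 250 positions. Hspa1a also overlaps the annotated gene Gm20481 on the opposite strand. The highest Hspa1a level in a class was 5.95 CPM, in oligodendrocytes of Ch25h+/+ Tau+ replicate 4, from 20 UMIs. Microglia held 3 Hspa1a UMIs and 1 Hspa1b UMI in all libraries together.

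Within groups, Hsph1, Dnajb1 and Dnaja1 were high in the same 3 libraries of oligodendrocytes. In oligodendrocytes Hsph1 read 105 CPM in Ch25h+/+ Tau- replicate 4, 69.2 CPM in replicate 4 labelled Ch25h-/- Tau- and 57.1 CPM in Ch25h+/+ Tau+ replicate 4, and 17.7 to 41.4 CPM in the other 13 libraries. Dnajb1 was highest in the same 3 libraries, at 13.0, 12.4 and 12.5 CPM against 2.21 to 8.45 CPM in the other 13. Dnaja1 was too, at 84.2, 89.9 and 92.2 CPM against 37.3 to 77.9 CPM. Hsp90aa1 followed only in part: these libraries read 355, 274 and 259 CPM, but Ch25h+/+ Tau- replicate 3 read 304 CPM. Hspa4l, an HSP110 gene from the lists, was at 75.0, 58.9 and 60.7 CPM there and at 29.5 to 44.7 CPM elsewhere. Cirbp, a cold-inducible RNA-binding protein gene, was lowest in these 3, at 44.5, 57.8 and 42.8 CPM against 59.6 to 84.0 CPM. Rbm3, listed with Cirbp as temperature-responsive, did not single them out. It read 60.3, 55.8 and 71.7 CPM there, and 69.6 CPM in Ch25h+/+ Tau- replicate 3. Cryab and Hsp90b1 from the lists did not single them out either. Cryab read 395, 288 and 333 CPM in the 3 libraries and 404 CPM in Ch25h+/+ Tau- replicate 3. Hsp90b1 read 186, 148 and 151 CPM in the 3 and 168 CPM in that library. The share of all genes that single out these 3 libraries is not given here. The libraries were picked here by their Hsph1 level, so no test applies, and neither handling of the tissue nor temperature is given in the sources used here.

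The same 3 libraries had the highest Hsph1 levels in CA pyramidal neurons, in the order of oligodendrocytes, and in dentate granule neurons, in another order. Hsph1 in CA pyramidal neurons read 55.0, 50.01 and 46.7 CPM in these 3 libraries and 24.1 to 44.5 CPM in the other 13, and in dentate granule neurons 40.7, 33.8 and 34.9 CPM against 17.6 to 26.9 CPM. In astrocytes these 3 libraries did not lead together. Ch25h+/+ Tau- replicate 4 had the highest Hsph1 there at 30.2 CPM, and a library of replicates 1 and 2 came next at 25.05 CPM. Over 15938 genes in CA pyramidal neurons, the library pattern of Stip1 was most like that of Hsph1, with a root mean square difference of 0.09 on the log2 scale against a median of 0.36. Stip1 encodes HOP, the adaptor that joins HSP70 to HSP90. The next were Nuak1, Ndufb11, Elof1 and 2810006K23Rik at 0.16 to 0.18.

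The tau comparisons asked which genes differed between Tau+ and Tau- libraries of 1 genotype. In Ch25h+/+ libraries, 0 of 46 member tests in 6 classes were called at an adjusted p under 0.05 by edgeR's quasi-likelihood test (Benjamini-Hochberg over all genes of a class), 0 by DESeq2, and 7 had an unadjusted p under 0.05, all with lower levels in Tau+, where 7.58% of all tests did. The share of all 79530 gene-by-class tests called was 0.332%. The fold changes lay below 0 in 40 of the 46 tests, with a median of -0.23 on the log2 scale against -0.00 over all tests (50.5% below 0). The median was -0.36 without Ch25h+/+ Tau+ replicate 4 (37 of 46 below 0) and -0.37 without Ch25h+/+ Tau- replicate 2 (36 of 47 below 0). The member tests of a comparison read a few genes in classes of the same libraries, so they are not independent. Counts of directions and of unadjusted p, here and below, are therefore a description. Hspa1b was tested in no class and Hspa1a in CA pyramidal neurons only, Dnajb1 in 4 classes and Hsph1 in 5, because the rest had too few UMIs.

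The lowest p was that of Hspa8 in astrocytes. Its level was 43.7, 48.4, 46.2 and 50.9 CPM in the 4 Ch25h+/+ Tau+ libraries and 48.5, 59.7, 108 and 88.4 CPM in the 4 Ch25h+/+ Tau- libraries, so the groups overlapped and 2 Tau- libraries were high. The means were 47.3 ± 3.09 and 76.1 ± 27.0 CPM (SD, n = 4 each), with a log2 fold change of -0.77 (SE 0.22, edgeR adjusted p = 0.134). The call was reached without Ch25h+/+ Tau- replicate 1 (-0.91, SE 0.20, edgeR adjusted p = 0.0469), a fit whose share of all tests called is not given here. It was also reached with the replicate split as a term (-0.72, SE 0.15, edgeR adjusted p = 0.0141), a fit that called 0.817% of all tests. The split was chosen with earlier results of these data known, so that call is a description. In oligodendrocytes Hspa8 read 73.3, 70.6, 69.7 and 85.6 CPM in Tau+ and 102, 80.2, 210.1 and 153 CPM in Tau-. This test, singled out after its values were seen, did not pass either (log2 fold change -0.86, SE 0.27, edgeR adjusted p = 0.554).

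In the libraries labelled Ch25h-/-, again 0 of 46 member tests were called by edgeR and 0 by DESeq2, against 0.244% of all tests, and 12 had an unadjusted p under 0.05, all lower in Tau+, where 8.81% of all tests did. The fold changes lay below 0 in 41 of 46, with a median of -0.32 on the log2 scale against -0.00 over all tests. Without Ch25h-/- Tau- replicate 4 the median was -0.21, without replicate 2 of that group -0.41, and without Ch25h-/- Tau+ replicate 1 -0.36. With only replicates 1 and 2 of each group 33 of 46 lay below 0, and with only replicates 3 and 4 it was 44 of 45. Hsp90ab1 in inhibitory neurons had the lowest p. Its level was 90.4, 73.6, 79.6 and 84.1 CPM in Ch25h-/- Tau+ and 101, 104, 135 and 143.5 CPM in Ch25h-/- Tau-. The groups did not overlap, at 82.0 ± 7.10 and 121 ± 21.5 CPM (SD, n = 4 each), and the log2 fold change was -0.56 (SE 0.14, edgeR adjusted p = 0.75). With the split as a term, which called 0.621% of all tests, the edgeR adjusted p was 0.0481 at a fold change of -0.54 (SE 0.10). Hsp90aa1 in CA pyramidal neurons was also under the threshold in that fit (-0.58, SE 0.12, edgeR adjusted p = 0.0376). Because the split was chosen with earlier results of these data known, both calls are a description.

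Hspa8 had lower fitted levels in Tau+ in all 6 classes in both genotypes, by -0.86 to -0.24 on the log2 scale in Ch25h+/+ and -0.65 to -0.51 in Ch25h-/-, and so had Hsp90aa1 (-0.54 to -0.21 and -0.63 to -0.11) and Hsp90ab1 (-0.43 to -0.09 and -0.56 to -0.24). None of these passed the test over all genes. Hspa5 in astrocytes was at 57.3 ± 10.9 CPM in Ch25h+/+ Tau+ and 81.5 ± 25.0 CPM in Ch25h+/+ Tau- (SD, n = 4 each), and the groups overlapped. Dnaja1 had fitted values of -0.17 to -0.07 in Ch25h+/+ and of -0.40 to 0.01 where labelled Ch25h-/-. In Ch25h+/+ Dnajb1 had values above 0, at 0.12 to 0.30 in 4 classes (SE 0.27 to 0.39). Where labelled Ch25h-/- Dnajb1 was below 0 in the same 4, at -0.39 to -0.02 (SE 0.25 to 0.44). The difference of these tau effects was -0.51 to -0.21 (SE 0.37 to 0.58), and none of these tests passed.

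**Figure D4:**
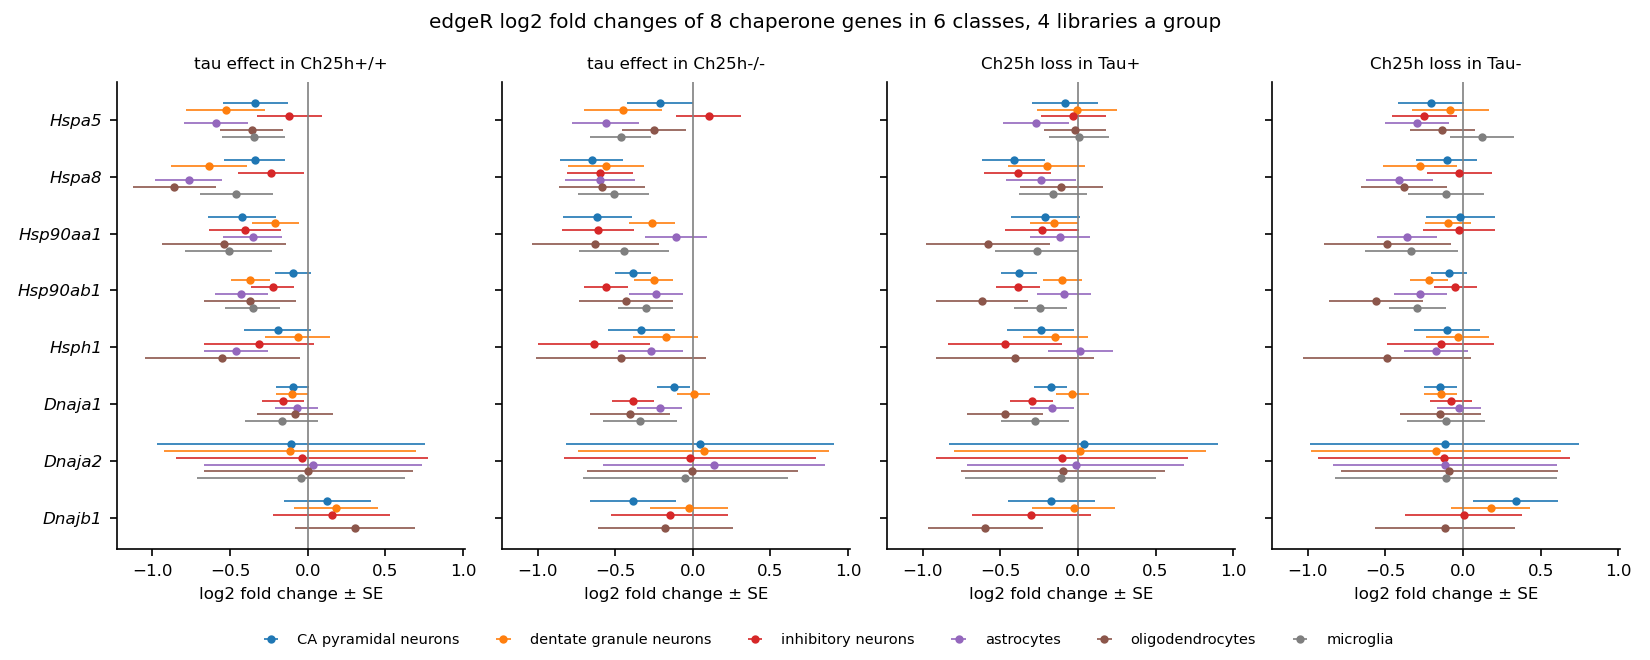
edgeR log2 fold changes with their SE (x axes) of 8 chaperone genes (rows) in 6 cell classes (colours) for 4 comparisons, each with 4 against 4 libraries; values left of 0 are lower in Tau+ or in Ch25h-/-. Most points lie left of 0, none passed the test over all genes, and Dnaja2 has the widest errors (SE up to 0.86).

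The replicates contributed unequally. In Tau- libraries Hsp90aa1 of oligodendrocytes read 180 and 115 CPM in replicates 1 and 2 of Ch25h+/+ and 304 and 355 CPM in replicates 3 and 4, and 114 and 110.1 CPM against 188 and 274 CPM where labelled Ch25h-/-. In Tau+ libraries it read 135, 107, 155 and 259 CPM in Ch25h+/+ and 99.8, 94.6, 117 and 120.5 CPM where labelled Ch25h-/-. The Tau- libraries of replicates 3 and 4 were thus high, and with them Ch25h+/+ Tau+ replicate 4. The free RNA in barcodes under 100 UMIs moved along: Hsp90aa1 there was at 324 to 401 CPM in the Tau- libraries of replicates 3 and 4 and 136 to 236 CPM in the Tau+ ones. In replicates 1 and 2 it was at 126 to 180 CPM in Tau- and 72.6 to 121 CPM in Tau+. Hspa5, Hspa8 and Hsp90ab1 in these barcodes were also higher in all Tau- than in all Tau+ libraries of either replicate pair. The remaining members overlapped in replicates 1 and 2. Hsph1 there was at 40.47 to 57.89 CPM in Tau- and 36.0 to 41.75 CPM in Tau+. Dnaja1 was at 83.55 to 112.9 CPM in Tau- and 73.92 to 87.15 CPM in Tau+. The share of all genes that separate in this way in these barcodes is not given here. The part of free RNA in the result was not tested. The median share of mitochondrial UMIs was highest in Ch25h+/+ Tau- replicate 3, at 0.225% against 0.0243 to 0.102% in the other 15 libraries.

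**Figure D5:**
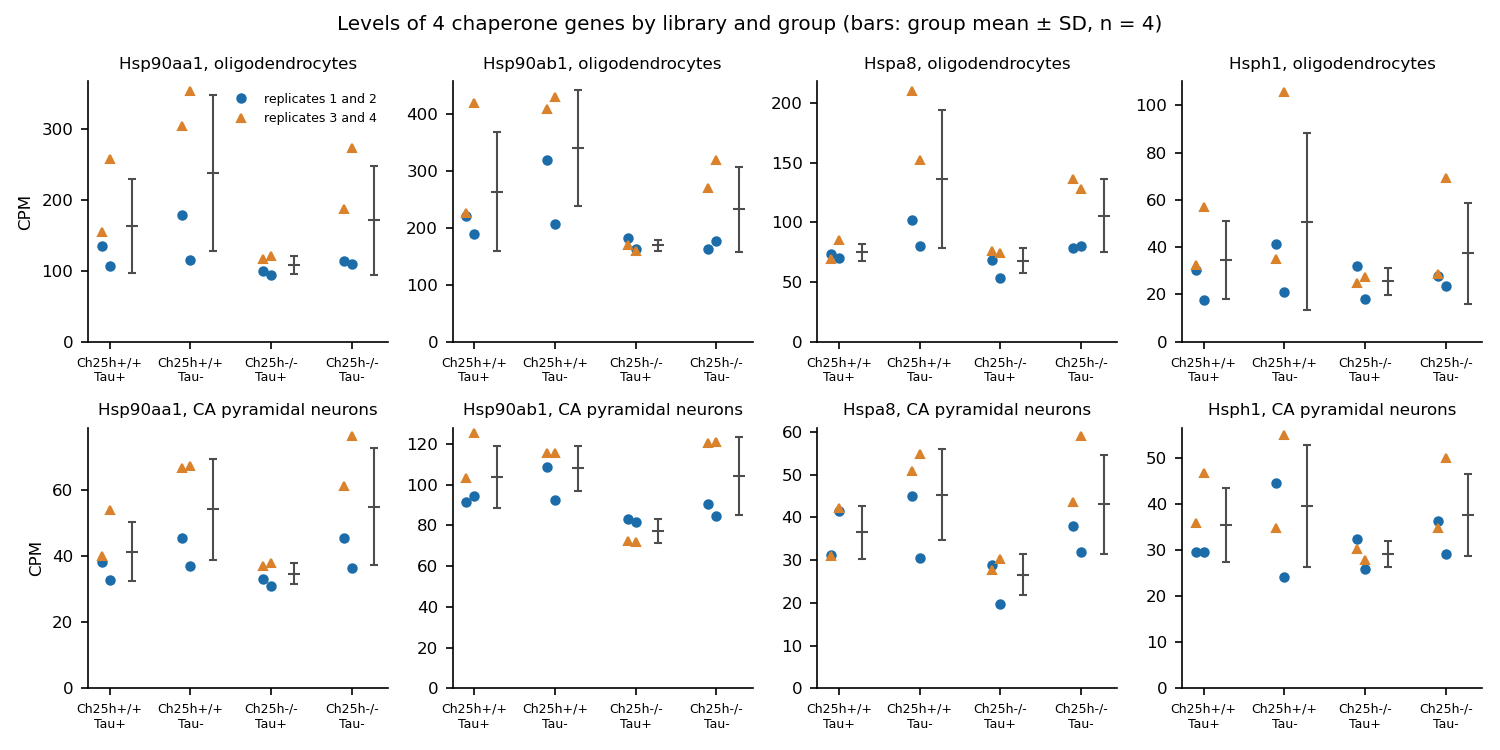
Levels (y axes, CPM from 0) of 4 chaperone genes in oligodendrocytes (top) and CA pyramidal neurons (bottom) by labelled group; circles are replicates 1 and 2, triangles replicates 3 and 4, and bars the group mean ± SD (n = 4). For Hsp90aa1, Hsp90ab1 and Hspa8 the triangles of the Tau- groups lie above their circles, for example Hsp90aa1 at 304 and 355 CPM against 180 and 115 CPM in oligodendrocytes of Ch25h+/+ Tau-.

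Fitted within replicates 3 and 4 alone (2 against 2 libraries), edgeR called Hspa8 in oligodendrocytes of Ch25h+/+ (-1.19, SE 0.17, adjusted p = 0.0135) and, where labelled Ch25h-/-, Hsp90aa1 and Hsp90ab1 in CA pyramidal neurons (-0.82 and -0.68, SE 0.15 and 0.10, edgeR adjusted p = 0.0474 and 0.0157) and Hsp90ab1 in inhibitory neurons (-0.74, SE 0.11, edgeR adjusted p = 0.0199). All were lower in Tau+. These were 1 and 3 of 45 member tests, and 0.069% and 0.206% of all tests were called in the 2 genotypes. The split was chosen with earlier results of these data known and leaves 2 libraries a group, so these calls are a description. Within replicates 1 and 2 alone none of the 46 tests was called in either genotype by edgeR, against 0.787% and 0.69% of all tests, and the same fold changes were -0.36, -0.34, -0.08 and -0.34. The median fold change of the members was -0.20 and -0.17 in replicates 1 and 2 and -0.34 and -0.46 in replicates 3 and 4, for Ch25h+/+ and Ch25h-/- in turn. The difference between the replicate pairs was not tested.

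The loss of Ch25h was compared within each tau state. In Tau+ 0 of 46 member tests were called by edgeR and 0 by DESeq2, 3 had an unadjusted p under 0.05 (3.25% of all tests did), and 0.00754% of all tests were called. The lowest p was that of Hsp90ab1 in CA pyramidal neurons, at 82.9, 81.8, 72.4 and 71.8 CPM where labelled Ch25h-/- and 91.6, 94.5, 103 and 125 CPM in Ch25h+/+. The means were 77.2 ± 5.93 and 103.5 ± 15.2 CPM (SD, n = 4 each) without overlap, and the log2 fold change was -0.38 (SE 0.12, edgeR adjusted p = 1.0). In Tau- 0 of 46 were called by edgeR and 0 by DESeq2, against 0.00377% of all tests, and 0 had an unadjusted p under 0.05 (3.84% of all tests did). Hspa8 in astrocytes was lowest there (-0.41, SE 0.21, edgeR adjusted p = 1.0). Fitted values lay below 0 in 42 of 46 tests in both comparisons, with medians of -0.17 and -0.12 on the log2 scale against -0.00 over all tests. Single libraries moved these medians: the value in Tau+ was -0.11 without Ch25h+/+ Tau+ replicate 4, and that in Tau- was -0.22 or -0.06 (27 of 46 below 0) when replicate 2 or 4 of Ch25h+/+ was left out. It was -0.08 or -0.24 when replicate 2 or 4 of Ch25h-/- was left out. The value in Tau+ was -0.13 with only replicates 1 and 2 of each group and -0.29 with only replicates 3 and 4. Each of these comparisons shares libraries with the tau comparisons, and the values are given side by side.

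Whether tau acted differently with and without Ch25h was tested as the difference between the tau effects. edgeR called 0 of 46 member tests, DESeq2 called 0, 0 had an unadjusted p under 0.05 (4.47% of all tests did), and 0.0% of all tests were called. The lowest p was again that of Hsp90ab1 in CA pyramidal neurons (-0.29, SE 0.16, edgeR adjusted p = 0.807), and its sign turned with only replicates 1 and 2, to 0.05. The median SE of the members was 0.32 for this difference and 0.22 to 0.23 for the single comparisons.

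The rest of the chaperone network was read from the 8 lists. Of 104 genes found in the tables, 98 could be tested in at least 1 class, giving 546 tests per comparison. edgeR called none in any of the 5 comparisons, DESeq2 none, and 34, 29, 23, 13 and 19 had an unadjusted p under 0.05 in the order tau effect in Ch25h+/+, tau effect in Ch25h-/-, Ch25h loss in Tau+, Ch25h loss in Tau- and difference of the tau effects. Over all tests the shares were 7.58, 8.81, 3.25, 3.84 and 4.47% in that order. Their median fold changes were -0.03, -0.06, -0.03, -0.02 and -0.00 on the log2 scale. Chaperonins, the barrel-shaped folding complexes, had medians of -0.10 and -0.10 in the tau comparisons, and the heat shock factors -0.00 and 0.00. Small heat shock proteins, with only 7 tests of 3 genes, had -0.26 and -0.27. For the loss of Ch25h in Tau+ and Tau- their medians were -0.50 and -0.52. Hsf1, which drives the heat shock response, was at 24.4 to 33.1 CPM over all nuclei in the 16 libraries.

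Genes of stimulation, temperature and time of day were counted as well. Of 5 temperature-responsive RNA-binding genes (30 tests a comparison) edgeR called none, DESeq2 none, and their medians were 0.08 and 0.04 for the tau effects in Ch25h+/+ and Ch25h-/-. Of 13 immediate early genes (51 tests), Atf3, a stress-induced transcription factor gene, rose in Tau+ microglia where labelled Ch25h-/- (fitted log2 fold change 3.43, SE 0.68, edgeR adjusted p = 0.0134, with few UMIs in Tau-). Of 15 clock genes in the tables (82 tests), Hlf fell in Tau+ microglia of Ch25h+/+ (-1.90, SE 0.47, edgeR adjusted p = 0.0436) and Nr1d2 in CA pyramidal neurons where labelled Ch25h-/- (-0.40, SE 0.07, edgeR adjusted p = 0.0316). DESeq2 called Atf3, Hlf and Nr1d2 in the same tests, and in addition Hlf in microglia for the tau effect where labelled Ch25h-/- and Junb in astrocytes for that in Ch25h+/+. Over all tests edgeR called the 0.332% and 0.244% given above, and the share called by DESeq2 is not given here. The clock genes' medians were -0.02 and -0.15 for the tau effects in Ch25h+/+ and Ch25h-/-. By edgeR 10 and 20 of their 82 tests had an unadjusted p under 0.05, where 7.58% and 8.81% of all tests did. The part of the clock genes in the levels of the chaperone genes was not tested.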

How the data were processed

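Nuclei were prepared with a 10x Chromium 3′ kit (version 3.1) per the labels' protocols. The deposited files hold UMI counts per gene and barcode for all barcodes, which per the file headers come from Cell Ranger 4, while the submitters' processing notes list Cell Ranger 3.1.0, Seurat and mm10. Annotation and intron counting are not given in the sources used here. Because the counts come from 3′ tags of nuclear RNA, they need not follow the cytoplasmic mRNA or the protein.

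Barcodes with at least 500 UMIs, at least 300 genes and at most 5% mitochondrial UMIs were kept (147873), and 11045 were removed as doublets by score with scanpy 1.11.5, at an assumed rate of 0.8% per 1000 nuclei. Nuclei were clustered on 3000 variable genes (Leiden, resolution 1.0), and 11 of 43 clusters stayed unnamed. UMIs were summed per library and class. edgeR 4.0.16 (TMM, filterByExpr, robust quasi-likelihood fit over 16 libraries, R 4.3.3) tested 6 classes, with Benjamini-Hochberg adjustment over all genes of a class and comparison. DESeq2 1.42.0 was an alternative. The edgeR script was tested on simulated data. CPM were taken over all UMIs of the class in a library. Gene positions are those of GENCODE on GRCm38.

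The genes, their lists and the replicate split were chosen with earlier results of these data known. Fold changes with SE and adjusted p are given for tests that passed and for the lowest p of each comparison, with 1 stated exception. Alternatives were another tool, scaling, count filter, UMI minimum, doublets kept, each library left out, and the replicate split.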

Additional observations from a re-analysis of the deposited data

Results flagged for a closer look

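Of 208 groups of 4 libraries examined (a gene in a class and genotype), 11 held 1 library far from the other 3, and chance alone sets apart about 1 in 20 groups. In oligodendrocytes of the group labelled Ch25h-/- Tau-, replicate 4 stood above the others for Hspa5 (112.6 CPM against 80.8 to 85.0 CPM), Hsph1 (69.2 CPM against 23.7 to 28.8 CPM) and Dnaja1 (89.9 CPM against 49.7 to 55.3 CPM). The same library was high in microglia for Hsph1 (24.1 CPM against 9.76 to 11.4 CPM) and Dnaja1 (94.1 CPM against 53.4 to 56.4 CPM).

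Replicate 4 of Ch25h+/+ Tau+ stood above its group for Hsp90ab1 in oligodendrocytes (419.8 CPM against 190.1 to 226 CPM), Hspa5 in astrocytes (73.6 CPM against 51.1 to 52.9 CPM), Dnaja1 in microglia (86.0 CPM against 54.5 to 59.5 CPM) and Hsp90aa1 over all nuclei (75.9 CPM against 46.8 to 51.5 CPM). Replicate 2 of Ch25h+/+ Tau- stood below its group in inhibitory neurons for Hspa5 (51.2 CPM against 69.5 to 72.8 CPM) and Hspa8 (48.0 CPM against 77.2 to 78.7 CPM).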

How the results depend on the processing

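The number of chaperone tests called moved from 0 under 3 alternatives. With the replicate split as a term it was 1 for the tau effect in Ch25h+/+ and 2 where labelled Ch25h-/- (0.817% and 0.621% of all tests). With only replicates 3 and 4 it was 1 and 3 (0.069% and 0.206% of all tests). Both alternatives use the split chosen with earlier results known, so their calls are a description. Leaving out 1 library at a time gave 0 to 1 for the tau effect in Ch25h+/+, the 1 being Hspa8 in astrocytes without Ch25h+/+ Tau- replicate 1. The share of all tests called in that fit is not given here. The fold change of Hsp90ab1 in CA pyramidal neurons for the difference of the tau effects turned from -0.29 to 0.0525 with only replicates 1 and 2, and the cause was not tested. In 4 cases a single fold change came to pass the threshold, as given beside Hspa8 in astrocytes and Hsp90ab1 in inhibitory neurons. The other 115 counts and 115 single fold changes kept their side of the threshold and direction, and 114 ratios of Dnaja2 stayed within the spread between libraries. No paired analysis was possible because the labels tie no library of one group to a library of another. The term for replicates 1 and 2 against 3 and 4 is a split of the libraries, not a pairing. Depth limits Hspa1a, Hspa1b and Dnajb1 most, and microglia among the classes.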
